A study of Papio anubis with 40 samples.

Results

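Within each of 8 olive baboons (Papio anubis), the plasma libraries with the highest and the lowest value of an index of red cell lysis were set against each other. The index was read from the microRNA counts themselves, as the log2 ratio of miR-451a to miR-23a-3p/23b-3p (a row that joins both names), each with 1 count added. The red cell microRNA miR-451a, itself part of the index and so not a result, was higher in the highest index library of 6 of 8 baboons. Its difference was larger than that of miR-23a-3p/23b-3p in 3 of 8. Every baboon gave 5 libraries, and the one with its highest and the one with its lowest index were taken, which made 16 of the 40 libraries, 8 against 8 and paired by animal; the other 24 lay in between. Endometriosis was induced in all animals by inoculating menstrual tissue into the peritoneum, and blood was taken before that step (month 0) and at months 3, 6, 9 and 15. The labels give 0.5 mL of plasma per sample and no treatment, whereas the series description names serum. All 8 animals were inoculated, and the highest index libraries were drawn at months 0 to 15 and the lowest at months 3 to 15.

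Red cells carry a very abundant set of microRNAs, and when they break during or after a blood draw these enter the plasma. miR-451a is made in red cell precursors by a Dicer-independent route and is among the most abundant microRNAs of the mature red cell, while miR-23a-3p is commonly taken as a plasma microRNA little affected by lysis, so their ratio is a widely used index of haemolysis. Other circulating microRNAs come mainly from platelets, white cells, endothelium and liver. Counts of a sequencing library are relative, so more material from one source and less from another cannot be told apart in them.

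The index was 0.71 in the median highest index library, with a range of -0.29 to 1.49, and -1.18 in the median lowest index library, with a range of -3.44 to 0.21. The difference within a baboon ran from 0.72 in PA8835 to 4.83 in PA8872, with a median of 1.56. The next libraries were close in some animals. The second highest index had a median of -0.029 (range -0.77 to 1.06) and the second lowest a median of -0.54 (range -1.61 to 0.60). The gap between the highest library and the second was as small as 0.021 in PA8835 and as large as 1.04 in PA8915, and the gap between the second lowest and the lowest ran from 0.055 in PA8915 to 3.11 in PA8872. The month 15 library of PA8872, at -3.44, stood apart from all others. These values chose the libraries and carry no test.

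**Figure D1:**
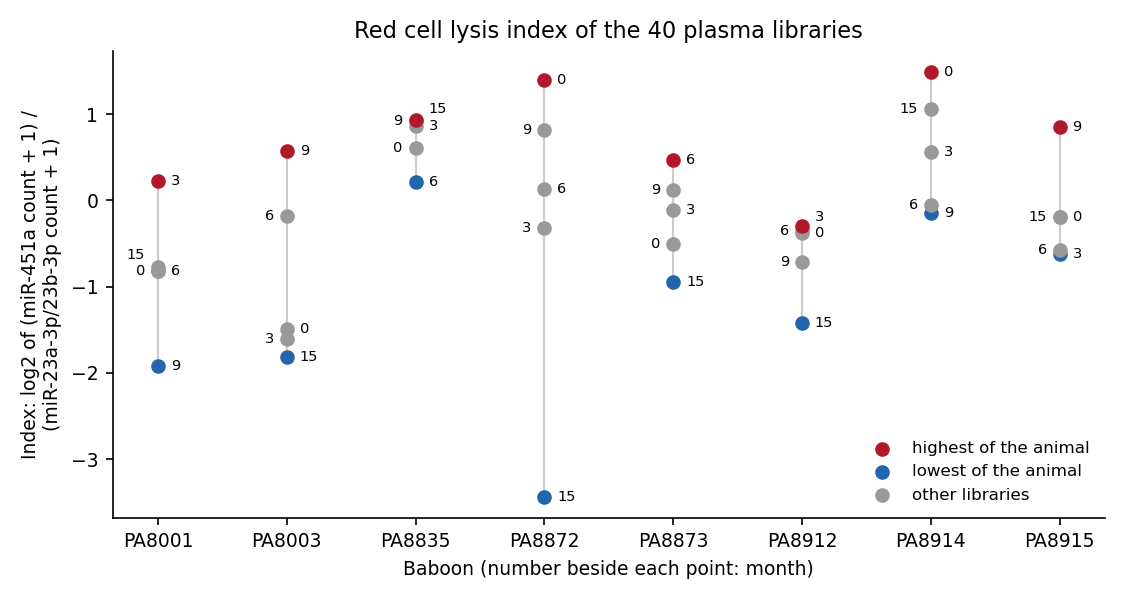
Index of red cell lysis (log2 of the miR-451a count plus 1 over the miR-23a-3p/23b-3p count plus 1) in each of the 40 libraries, by baboon; the number beside a point is the month. The highest library of each animal lies between -0.29 and 1.49 and the lowest between -3.44 and 0.21, so the lowest library of PA8835 has a higher index than the highest of PA8912.

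Both microRNAs of the ratio contributed, and not equally. miR-451a stood at 619 to 5659 CPM (counts relative to the TMM-scaled total of the library; median 1489) in the highest index libraries, against 264 to 2748 CPM (median 697) in the lowest. It was higher in the highest index library of 6 of 8 baboons, in PA8912 by only 0.00061 on the log2 scale. Its median log2 difference over all 8 was 0.80. In PA8915 it went the other way, by -1.38, and in PA8873 by -0.27. miR-23a-3p/23b-3p stood at 316 to 2355 CPM (median 945) in the highest index libraries, against 565 to 5136 CPM (median 1631) in the lowest, and was lower in 7 of 8 baboons, by a median log2 difference of -0.98. In 3 of 8 baboons the difference in miR-451a was the larger of the pair; in the others the index was set more by miR-23a-3p/23b-3p. A choice by miR-451a alone would have taken 3 of the same 8 highest and 4 of the same 8 lowest libraries, and a choice by miR-23a-3p/23b-3p alone 4 and 3.

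Total counts over the 40 libraries ran from 696873 to 5824111 with a median of 1629264.5. They were 1141578 to 2523892 (median 1742941) in the highest index libraries, against 710943 to 3923510 (median 2332494) in the lowest, and 331 to 388 rows had a count in the highest index libraries, against 286 to 434 in the lowest. The log2 total differed by -0.254 ± 0.832 (SD, n = 8; lower in 5 of 8 baboons) and the rows with a count by -18 ± 39.6 (lower in 7 of 8). By the two-sided exact sign-flip permutation test over baboons neither passed (p = 0.352 and p = 0.242; both 0.352 after Benjamini-Hochberg adjustment over the 3 library properties tested, the smallest possible p being 0.00781). The highest index libraries were drawn at a mean of month 5.62, against month 10.9 for the lowest, a difference of -5.25 ± 8.45 months with the earlier draw in the highest index library of 6 of 8 baboons (exact p = 0.164, adjusted 0.352). Of the lowest index libraries 4 were from month 15, against 1 of the highest, and of the highest 2 were from month 0, against 0 of the lowest. The hepatocyte microRNA miR-122-5p took 0.969 to 40.2% of counts in the highest index libraries (median 4.51%), against 0.467 to 78.6% in the lowest (median 3.85%), the top value being the month 9 library of PA8001.

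All other microRNAs were then compared between the highest and the lowest index libraries. miR-486-5p, an abundant red cell microRNA encoded in an intron of the erythroid gene ANK1, rose in the highest index libraries. It was the only one of 272 microRNAs tested that passed an adjusted p of 0.05 (0.368%), and none passed in the other direction. It stood at 93791 to 207050 CPM (median 113196) in the highest index libraries, against 24185 to 119711 CPM (median 49549) in the lowest. The levels overlapped only through the month 9 library of PA8914, the highest of the lowest index libraries. The rise was 2.40-fold (log2 1.26, SE 0.239, adjusted p = 0.0333 by edgeR's quasi-likelihood test with baboon as a term), and it was seen in 8 of 8 baboons, with log2 differences from 0.03 in PA8835 to 2.18 in PA8872. The call was lost when PA8003, PA8872, PA8873, PA8912 or PA8915 was left out, with the log2 change of miR-486-5p then between 1.20 and 1.37 and the adjusted p between 0.0521 and 0.0982. With libraries chosen by miR-451a alone its change was 0.056 (adjusted p = 0.965). The call was also lost with library totals alone as the scaling (log2 1.21, adjusted p = 0.0806), without baboon as a term (log2 1.15, adjusted p = 0.0707), with month as a covariate (log2 0.99, adjusted p = 0.350), and when log2 total count was a covariate, at 1.11 (adjusted p = 0.0956). Without both PA8001, whose lowest index library was mostly miR-122-5p, and PA8872, with the outlying index, it was 1.05 (adjusted p = 0.125), a setting added after seeing the data.

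More microRNAs lay just short of that threshold than past it. At an unadjusted p of 0.05, 63 of 272 were passed (23.2%), 27 with a higher level in the highest index libraries (9.93%) and 36 with a lower one (13.2%). At an adjusted p of 0.10 it was 34 (12.5%), 15 of them higher (5.51%) and 19 lower (6.99%). The count at an adjusted p of 0.05 was 0 to 43 over the tools, scalings and filters tried, with 43 by DESeq2 on the same design and 29 by limma-voom. In 14 microRNAs all 8 baboons had the same sign (5.15%), 9 higher (3.31%) and 5 lower (1.84%) in the highest index libraries. Over all 272 the median log2 difference was -0.0029, with 135 above 0.

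miR-144-3p is processed from the same transcript as miR-451a and is not independent of the index. It stood at 1120 to 4157 CPM (median 2098) in the highest index libraries, against 191 to 2100 CPM (median 749) in the lowest, 2.65-fold apart and higher in every baboon (log2 1.40 with an SE of 0.319, adjusted p = 0.0540 by edgeR). Its levels overlapped between the classes. miR-610 was the only microRNA of the 272 whose levels did not overlap (0.368%): 37.8 to 84.9 CPM (median 49.7) in the highest index libraries, against 12.3 to 34.9 CPM (median 29.2) in the lowest (log2 0.99, SE 0.250, adjusted p = 0.0553 by edgeR). miR-873-5p had medians of 34.9 CPM in the highest index libraries and 19.3 CPM in the lowest (log2 1.25, adjusted p = 0.0540), and miR-671-5p medians of 99.4 CPM in the highest and 43.9 CPM in the lowest (log2 0.86, adjusted p = 0.0553); both were higher in the highest index library of all 8 baboons. The same held for miR-499a-5p, miR-199b-5p, miR-339-3p and miR-7-5p, with log2 differences of 0.51 to 1.13. None of these 8 passed by edgeR, whereas DESeq2 called all 8, against 23 called higher of all 272. The 8 are named here for their sign in all baboons, and all had a level above 0 in every library of the 16.

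On the lower side no microRNA passed by edgeR, while DESeq2 called 20 and limma-voom 19, both arms of miR-223, miR-126-5p, miR-151a-3p, miR-598-3p and miR-9-3p among them by either tool. miR-223-5p, one arm of the hairpin that marks the myeloid lineage, stood at 288 to 712 CPM (median 548) in the highest index libraries, against 706 to 1588 CPM (median 1040) in the lowest. The classes overlapped only through PA8835, the animal without a lower level in its highest index library (log2 -1.09, SE 0.252, adjusted p = 0.0540 by edgeR). Its other arm miR-223-3p had medians of 3771 CPM in the highest index libraries and 8475 CPM in the lowest (log2 -1.05, adjusted p = 0.0553) and was lower in 6 of 8 baboons. miR-126-5p, from a hairpin abundant in endothelium and platelets, stood at 12412 to 31815 CPM (median 18118) in the highest index libraries, against 19605 to 53264 CPM (median 31223) in the lowest, and was lower in all 8 (log2 -0.72, adjusted p = 0.0618). miR-151a-3p, also present in platelets, had 247 to 393 CPM (median 311) in the highest index libraries, against 376 to 643 CPM (median 490) in the lowest, again lower in all 8 with ranges that overlapped slightly (log2 -0.65, adjusted p = 0.0618). miR-130a-3p, miR-28-5p and miR-30d-5p were the other 3 that were lower in all 8 baboons, with log2 differences of -0.67, -0.84 and -0.30. miR-598-3p had the largest difference among the 10 smallest p on this side, with medians of 135 CPM in the highest index libraries and 374 CPM in the lowest (log2 -1.44, adjusted p = 0.0553). The neural microRNA miR-9-3p had medians of 86.7 CPM and 155 CPM in the highest and the lowest index libraries (log2 -1.28, adjusted p = 0.0553). Both were lower in 7 of 8 baboons.

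**Figure D2:**
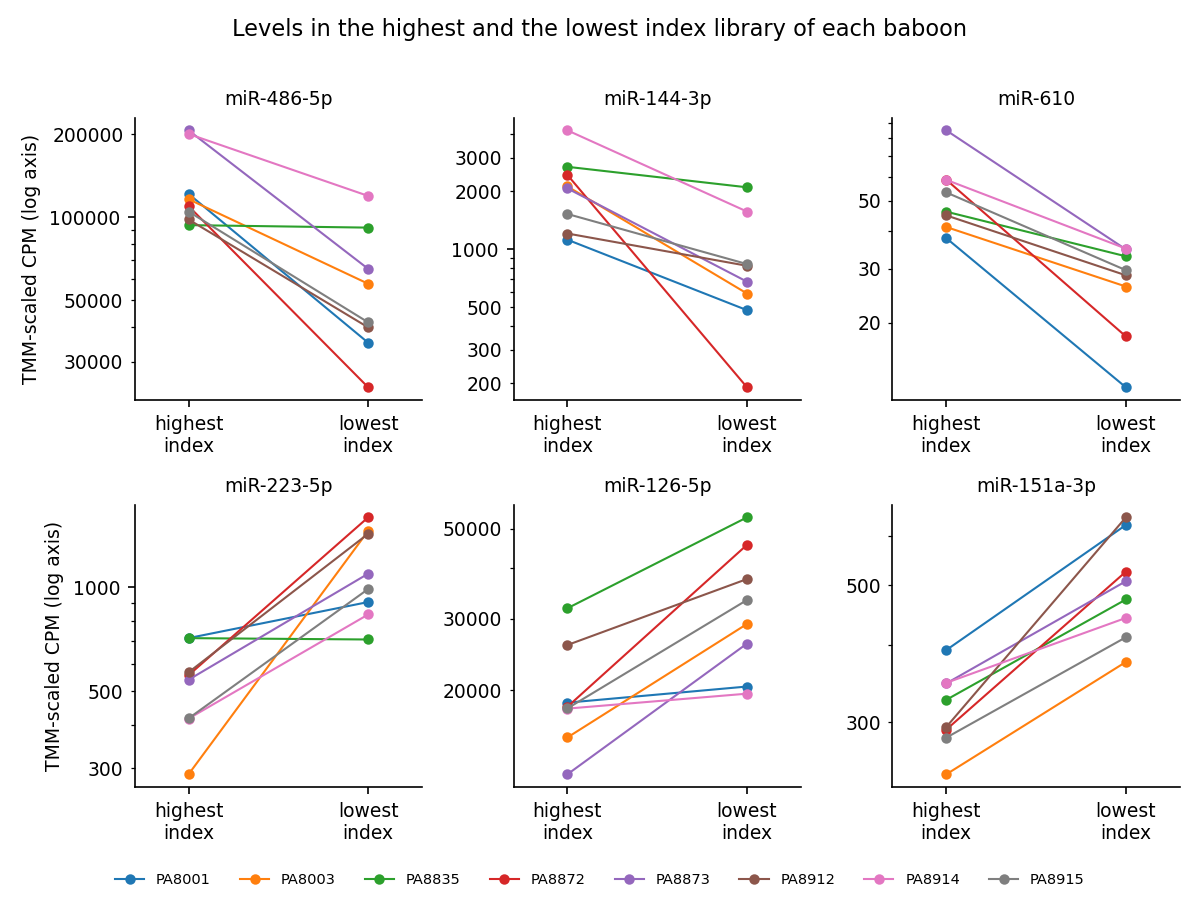
Levels of 6 microRNAs (CPM after TMM scaling, log axis) in the highest index library, at left, and the lowest index library, at right, of each baboon; a line joins the 2 libraries of an animal. miR-486-5p, miR-144-3p and miR-610 are higher at left in all 8 animals, miR-126-5p and miR-151a-3p lower in all 8, and miR-223-5p lower in 7.

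The red cell list held 14 tested microRNAs, of which 13 lay above 0, with a median log2 difference of 0.56. Of the 14, 1 passed by edgeR, 6 by DESeq2 and 3 by limma-voom, against 1, 23 and 10 called higher of all 272. Without the low-count filter the list had 12 of 18 above 0 with a median of 0.32, against 262 of all 602 with a median of -0.19. By edgeR 7 of the 14 reached an unadjusted p of 0.05 with a higher level in the highest index libraries, against 27 of all 272 (9.93%). Besides both arms of miR-486 and miR-144-3p these were miR-15a-5p, miR-106b-5p, miR-92a-3p and miR-16-5p. miR-486-3p had medians of 311 CPM in the highest index libraries and 138 CPM in the lowest (log2 1.07, adjusted p = 0.0636 by edgeR). miR-16-5p, which had the highest mean of any microRNA over the 16 libraries, stood at 116164 to 439810 CPM (median 220864) in the highest index libraries, against 63897 to 310904 CPM (median 155222) in the lowest, was higher in 6 of 8 baboons and differed by 0.56 (SE 0.259, adjusted p = 0.208). miR-15a-5p, encoded beside miR-16, had medians of 950 and 599 CPM in the highest and the lowest index libraries (log2 0.64, adjusted p = 0.0912). miR-20b-5p was the 1 member below 0, at -0.21. Together the list took 26.3 to 53.3% of counts in the highest index libraries (median 43.9%), against 6.11 to 41.7% in the lowest (median 32.8%), and took more in the highest index library of 7 of 8 baboons.

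The platelet list ran the other way. Of its 16 tested members 2 lay above 0 and 14 below, with a median of -0.66. None passed by edgeR, and 6 were called lower by DESeq2 and 6 by limma-voom, against 20 and 19 of all 272. By edgeR 8 reached an unadjusted p of 0.05 with a lower level in the highest index libraries, against 36 of all 272 (13.2%). miR-126-3p, the more abundant arm, stood at 22643 to 82186 CPM (median 37808) in the highest index libraries, against 35250 to 98450 CPM (median 71479) in the lowest, and was lower in all but PA8001 (log2 -0.80 with an SE of 0.255, adjusted p = 0.0760 by edgeR). miR-28-3p had medians of 829 and 1365 CPM in the highest and the lowest index libraries (log2 -0.73, adjusted p = 0.0618), and miR-191-5p medians of 18974 and 31168 CPM (log2 -0.40, adjusted p = 0.388). The list took 7.33 to 15.5% of counts in the highest index libraries (median 8.71%), against 3.46 to 28.6% in the lowest (median 19.2%), and more in the highest index library of 1 baboon of 8. None of its tested members named here was at 0 in any of the 16 libraries. Some of its members also stand in other lists, miR-223-3p and miR-21-5p in the myeloid list and miR-199a-5p in the endothelial and stromal list. The share of the list thus differed with the index as well, but it is not a share of platelets alone. As shares are relative, less of this list and more of another cannot be told apart. The part of platelets in the differences was not tested.

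White cell lists were mixed. Of 9 myeloid microRNAs 4 lay above 0, with a median of -0.23. None passed by edgeR, and both DESeq2 and limma-voom called 2 lower, the arms of miR-223, against 20 and 19 lower of all 272. Both arms of miR-223 and miR-155-5p made up the 3 myeloid members at an unadjusted p of 0.05 by edgeR. All 3 were lower, against 36 lower of all 272 (13.2%). On the other side lay miR-142-5p, with medians of 3916 CPM in the highest index libraries and 3384 CPM in the lowest (log2 0.37, adjusted p = 0.319 by edgeR). The myeloid list took 0.817 to 1.92% of counts in the highest index libraries and 0.627 to 3.39% in the lowest. Of 11 lymphocyte microRNAs 7 lay above 0, with a median of 0.24, and none passed by edgeR, DESeq2 or limma-voom. By edgeR 2 were lower at an unadjusted p of 0.05, against 36 of all 272 (13.2%). Summed, the lymphocyte list took a median of 1.63% of counts in the highest index libraries, against 2.34% in the lowest. Its share was larger in the highest index library of 2 of 8 baboons. miR-155-5p, which rises in activated lymphocytes and macrophages, had medians of 1184 and 2185 CPM in the highest and the lowest index libraries (log2 -0.68, adjusted p = 0.153), and miR-342-3p had medians of 671 and 454 CPM (log2 0.66, adjusted p = 0.237).

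By edgeR none of the tissue lists held a call. DESeq2 called miR-499a-5p, miR-449a/449b-5p, miR-199b-5p and miR-100-5p higher and both arms of miR-9 lower, against 23 higher and 20 lower of all 272. By limma-voom miR-499a-5p and miR-199b-5p were called higher and both arms of miR-9 lower, against 10 higher and 19 lower of all 272. In the liver list 6 of 8 lay above 0 with a median of 0.32, and miR-122-5p had medians of 39108 CPM in the highest index libraries and 35742 CPM in the lowest (log2 0.63, SE 0.437, adjusted p = 0.408 by edgeR), higher in 6 of 8 baboons. The sign of the liver median was not stable: it was -0.11 when the miR-122-5p level was a covariate and -0.74 without baboon as a term. All 6 muscle microRNAs lay above 0, with a median of 0.53. The smallest p was that of miR-499a-5p of cardiac and slow skeletal muscle, at medians of 170 and 116 CPM in the highest and the lowest index libraries (log2 0.70, adjusted p = 0.0618), and the largest difference that of miR-1-3p, at medians of 7991 and 3882 CPM (log2 0.94, adjusted p = 0.208). Of 9 epithelial microRNAs 7 lay above 0 with a median of 0.43, and of 11 endothelial and stromal ones 9, with a median of 0.26. Summed, the endothelial and stromal list took a larger share of counts in the highest index library of 2 of 8 baboons. Within that list miR-199b-5p (log2 1.13, adjusted p = 0.0650) and miR-100-5p (log2 1.07, adjusted p = 0.167) had the smallest p, and the low-count miR-214-3p the largest difference (log2 1.18, adjusted p = 0.444). Of 4 neural microRNAs 1 lay above 0, with a median of -0.72 that rests on both arms of miR-9, miR-9-5p differing by -1.47 (adjusted p = 0.0656). Without the low-count filter 4 of 8 neural microRNAs lay above 0, with a median of -0.066.

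Among families and clusters, the group of clusters that holds miR-17, miR-20a, miR-92a, miR-93 and miR-106b, known for their part in cell proliferation and blood formation, had 9 of 11 members above 0 and a median of 0.41. None passed by edgeR or limma-voom, and DESeq2 called 3 higher, miR-20a-5p, miR-106b-5p and miR-92a-3p, against 23 higher of all 272. miR-20a-5p had 2637 to 4198 CPM (median 3342) in the highest index libraries, against 1534 to 3595 CPM (median 2162) in the lowest, and was higher in the highest index library of every baboon but PA8835 (log2 0.55 with an SE of 0.187, adjusted p = 0.0912 by edgeR). Several of its members also stand in the red cell list, miR-106b-5p, miR-92a-3p and miR-93-5p among them. The family of miR-15 and miR-16 had 6 of 7 above 0, with a median of 0.30. The imprinted DLK1-DIO3 cluster, a large maternally expressed group of microRNAs active in placenta and brain, had 1 of 18 above 0 and a median of -0.59. By edgeR 4 of the 18 were lower at an unadjusted p of 0.05, against 36 of all 272 (13.2%). None of the cluster passed by edgeR, while miR-127-3p passed, lower, by DESeq2 and by limma-voom, against 20 and 19 lower of all 272. Its member with the smallest p, miR-127-3p, stood at 67.0 to 289 CPM (median 146) in the highest index libraries, against 154 to 899 CPM (median 241) in the lowest, and was lower in 7 of 8 baboons (log2 -1.02 with an SE of 0.314, adjusted p = 0.0656). miR-409-3p, which also stands in the platelet list, differed by -0.67 and miR-323a-3p by -1.27. The let-7 family had 3 of 8 above 0, with a median of -0.13 and a range of -0.38 to 0.34, and the miR-30 family 2 of 6, with a median of -0.42. miR-27a-3p/27b-3p comes from the same clusters as miR-23a and miR-23b and so is not independent of the index. It had medians of 455 and 824 CPM in the highest and the lowest index libraries (log2 -0.78, adjusted p = 0.0650). miR-320a-3p and its joined relatives differed by 0.30, and of 3 members of the cluster of miR-532 and miR-660 1 lay above 0, with a median of -0.20.

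**Figure D3:**
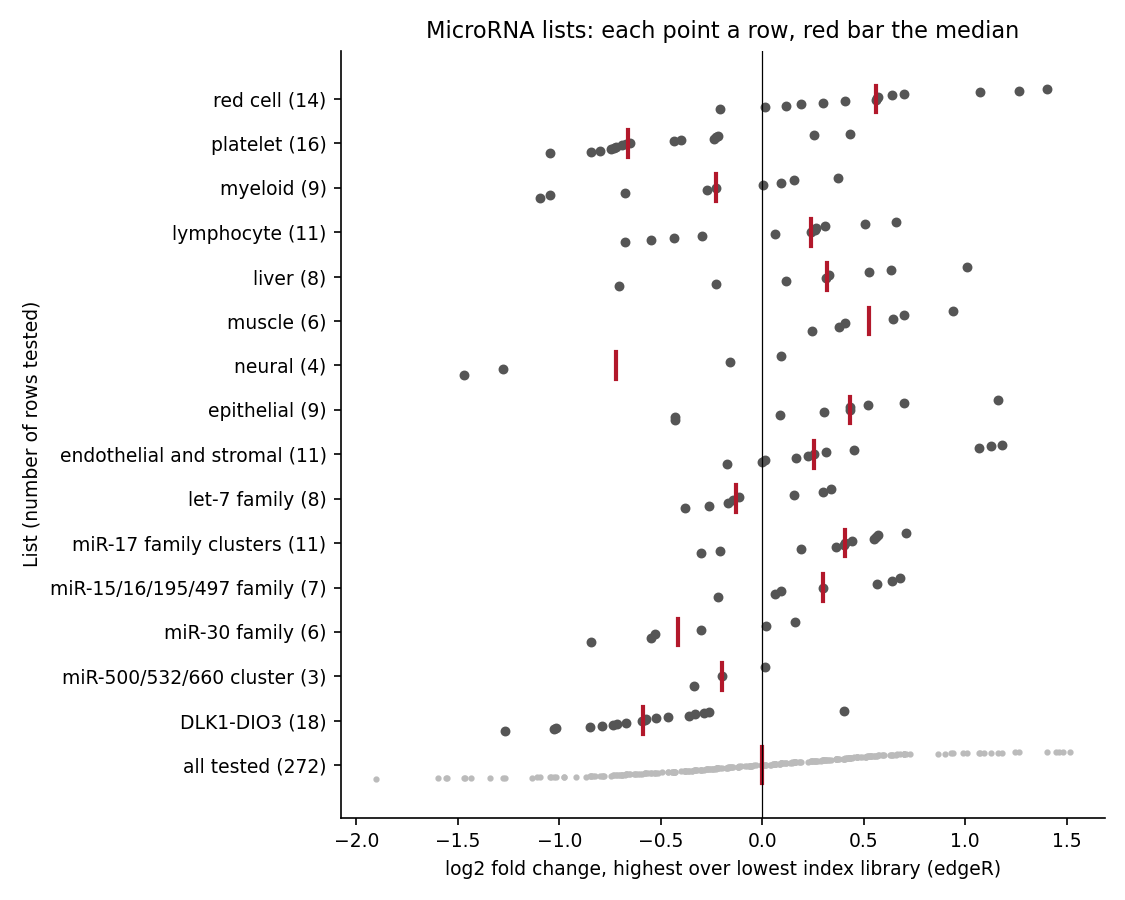
Log2 fold change of the highest over the lowest index libraries (edgeR) for each tested microRNA, by list, with the number tested in brackets; grey points at the bottom are all 272 and red bars are medians. The red cell list has 13 of 14 points above 0 and a median of 0.56, the platelet and DLK1-DIO3 lists have medians of -0.66 and -0.59, and the median of all 272 is -0.0029.

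Ranking the 5 libraries of each baboon by the index placed the differences. Relative to the mean of its animal's 5 libraries on the log2 CPM scale, miR-144-3p lay, from the lowest to the highest rank, at -0.71 ± 0.74, -0.30 ± 0.47, 0.02 ± 0.26, 0.27 ± 0.51 and 0.72 ± 0.38 (SD, n = 8), higher at each step. miR-486-5p lay at -0.62 ± 0.46, -0.26 ± 0.38, 0.21 ± 0.29, 0.04 ± 0.56 and 0.63 ± 0.38, so ranks 3 and 4 were in the other order, by less than the spread. On the lower side the pattern had another shape. miR-223-5p lay at 0.60 ± 0.33 in the lowest rank, at -0.05 ± 0.24, -0.12 ± 0.37 and 0.08 ± 0.42 in the middle ranks and at -0.51 ± 0.55 in the highest, and miR-126-5p at 0.29 ± 0.34, -0.14 ± 0.31, 0.11 ± 0.30, 0.18 ± 0.44 and -0.44 ± 0.41. These profiles include the libraries that the index chose and are a description.

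**Figure D4:**
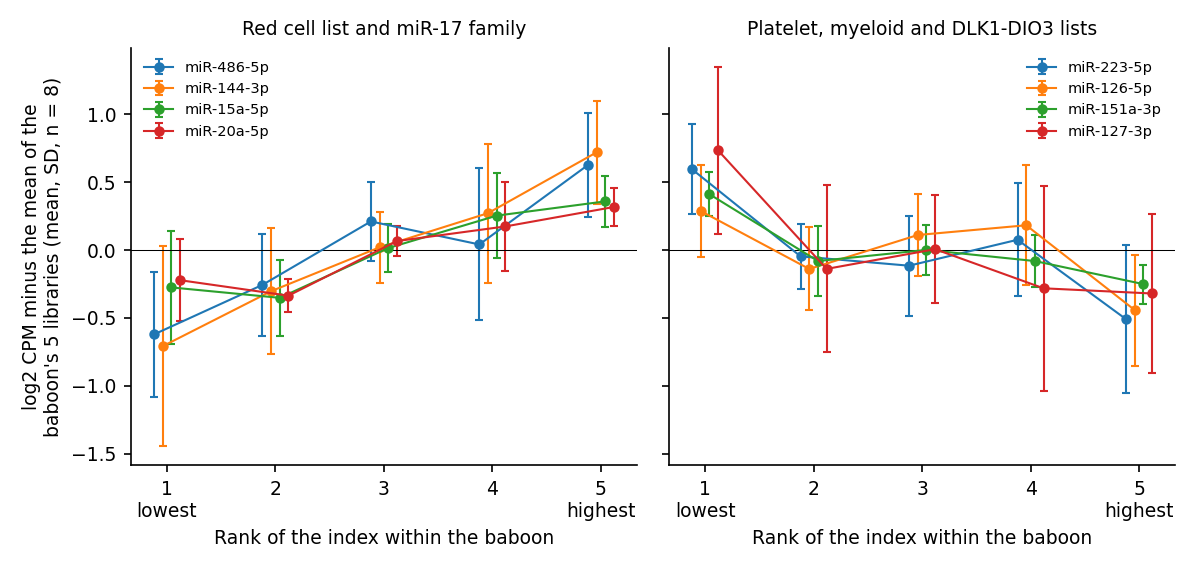
Mean level by rank of the index within the baboon, from 1 (lowest) to 5 (highest), as log2 CPM minus the mean of the animal's 5 libraries (bars SD, n = 8). miR-144-3p is higher at every rank, while miR-223-5p is at 0.60 in the lowest rank, between -0.12 and 0.08 in the middle 3 and at -0.51 in the highest.

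The 24 libraries outside the 16 were then compared along the same index. The index ranked these libraries too, so its own 2 microRNAs are again no result, while the levels of all other microRNAs in them entered neither the choice nor the fit of the 16. In the second highest against the second lowest library of each baboon, whose index differed by a median of 0.50, 0 of 245 microRNAs passed by edgeR, 0 by DESeq2 and 0 by limma-voom, with 24, 24 and 28 at an unadjusted p of 0.05. For edgeR these were 9.8%, of which 15 were higher (6.12%) and 9 lower (3.67%) in the second highest libraries. Of the 61 microRNAs that had reached an unadjusted p of 0.05 in the extreme libraries and could be tested here, 33 had the same sign (54.1%), against 119 of all 244 (48.8%). miR-486-5p differed by 0.26 (adjusted p = 0.853) and miR-144-3p by 0.52 (adjusted p = 0.688). The red cell list had 12 of 13 above 0 with a median of 0.34, against 111 of all 244 with a median of -0.027, and the miR-17 clusters 10 of 10 with a median of 0.47, while the platelet list had 5 of 16 with a median of -0.035. Other lists had medians of the opposite sign to the extreme libraries: muscle with 1 of 6 above 0 (median -0.56), liver with 2 of 8 (-0.47), endothelial and stromal with 2 of 11 (-0.34), lymphocyte with 4 of 11 (-0.12), epithelial with 4 of 8 (-0.025), myeloid with 6 of 9 (0.14) and the miR-30 family with 4 of 6 (0.077), as did the groups of 3 or fewer tested members. The time of the draw ran the other way here: the second highest libraries were later than the second lowest in 7 of 8 baboons, by a mean of 7.12 months (exact p = 0.0234, without adjustment).

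The index as a number over the 24 libraries in between, with baboon as a term, called 6 of 203 microRNAs (2.96%), all higher with a higher index. The 24 include the second highest and the second lowest library of each baboon, so this fit is not independent of the comparison before it. As part of the transcript of miR-451a, miR-144-3p is not independent of this slope. The 6 were miR-20a-5p (0.70 per unit of index, SE 0.130, adjusted p = 0.00751 by edgeR), miR-15a-5p (0.71, adjusted p = 0.0182), miR-142-5p (0.57, adjusted p = 0.0182), miR-93-5p (0.59, adjusted p = 0.0324), miR-144-3p (0.88, adjusted p = 0.0324) and miR-106b-5p (0.67, adjusted p = 0.0457). Of these miR-15a-5p, miR-93-5p, miR-144-3p and miR-106b-5p are in the red cell list, miR-20a-5p is of the miR-17 clusters, and miR-142-5p is expressed throughout the blood lineages. miR-486-5p had a slope of 0.67 (SE 0.258) and did not pass (adjusted p = 0.168). At an unadjusted p of 0.05 it was 32 of 203 (15.8%), 22 with a positive slope (10.8%) and 10 with a negative one (4.93%). Of the 23 microRNAs higher in the highest index libraries at an unadjusted p of 0.05, 22 had a slope of the same sign, and of the 32 lower ones 21, against 80 of the other 148. The red cell list had 12 of 13 slopes above 0 (median 0.57), the miR-17 clusters 9 of 10 (median 0.59), the DLK1-DIO3 cluster 1 of 13 (median -0.43) and the platelet list 2 of 15 (median -0.16), against 105 of all 203 (median 0.016). Slopes of the liver list (1 of 5 above 0, median -0.086), the epithelial list (3 of 7, median -0.047), the endothelial and stromal list (4 of 9, median -0.073), the myeloid list (6 of 9, median 0.13) and the miR-30 family (5 of 6, median 0.092) had medians opposite in sign to the extreme libraries. So did the clusters of miR-23, miR-27 and miR-24 without miR-23-3p (1 of 2, median 0.20) and the cluster of miR-532 and miR-660 (2 of 3, median 0.032). For miR-223-5p the slope was 0.13 and for miR-126-5p 0.09, both opposite in sign to the extreme libraries (adjusted p = 0.857 and 0.956 by edgeR).

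**Figure D5:**
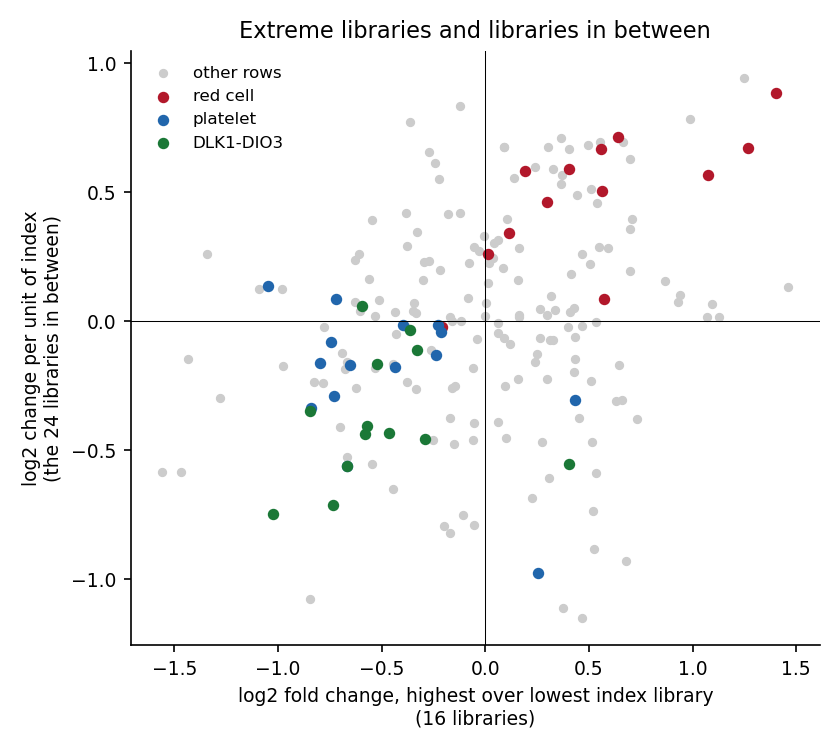
Each point is a microRNA tested in both sets of libraries, with its log2 fold change of the highest over the lowest index libraries (16 libraries, x axis) and its log2 change per unit of index over the 24 libraries in between (y axis). Of the red cell list 12 of 13 points have a slope above 0, of the DLK1-DIO3 cluster 1 of 13 and of the platelet list 2 of 15.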

How the data were processed

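The authors deposited raw counts, whole numbers for each mature microRNA, for 40 plasma libraries of 8 baboons. Per the labels' protocols, adapters were ligated to both ends of microRNAs, cDNA synthesis added molecular identifiers and sequencing was on a NovaSeq X. It is not stated if reads or identifiers were counted. Aligner, microRNA database and genome build: not given in the sources used here. R 4.5.0, edgeR and limma are named per the submitters' processing notes. Rows carry human names; 17 of the tested rows join several names and cannot be divided between them. Of 2731 rows 689 had a count in any library and 604 in the 16 libraries. No pair of libraries was identical.

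The 16 libraries were fitted with edgeR 4.0.16 (limma 3.58.1, R 4.3.3): TMM scaling, filterByExpr grouped by class (minimum count 10, minimum total 15), quasi-likelihood F test with baboon as a term, and Benjamini-Hochberg adjustment over 272 rows at a threshold of 0.05, two-sided. The filter kept 274 rows, 99.4 to 99.98% of each library's counts; miR-451a and miR-23a-3p/23b-3p stayed in the totals and were not tested. A row could pass the filter through one class alone. Levels are TMM-scaled CPM, and log2 CPM used a prior count of 2. DESeq2 1.42.0 and limma-voom were alternatives. The fit was also run on simulated counts. Their classes were fixed in advance, so that run does not cover the choice of libraries by the index. Deviations of libraries from their class mean correlated, across microRNAs, by a mean of 0.271 within a baboon (0.0882 to 0.516 over the 8 pairs). Between baboons the mean was -0.0378, with a wider range of -0.468 to 0.676 over 56 pairs. The pairing comes from the animal. The replicates are 8 animals. In the paired comparison, p-values measure how much the difference within an animal varies from animal to animal, which includes the spread between draws.

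The microRNAs named are those past the threshold (at most 15 a side, with their sign in at least 7 of 8 baboons), the 10 with the smallest p, in each list up to 4 with the smallest p, and the 10 most abundant; others, such as miR-130a-3p and miR-20b-5p, were named after their values were seen. The 17 lists hold 205 entries, 187 of them distinct, and 3 had no match. The choice of libraries, members and lists was made with earlier results of these data known. No sequence or coordinate is given.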

Additional observations from a re-analysis of the deposited data

Results flagged for a closer look

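In 3 of 74 sets of 8 values (library properties, and paired log2 differences of microRNAs), 1 baboon stood apart from the other 7 by Dixon's criterion on the gap to the nearest other value, which chance meets in about 1 in 20 sets. For miR-144-3p the difference of the highest minus the lowest index library was 3.67 in PA8872, against 0.354 to 1.85 in the others; PA8872 is also the animal with the widest index. For miR-365a-3p/365b-3p, a row of the liver list, it was -3.82 in PA8001, whose lowest index library held 78.6% miR-122-5p, against -0.323 to 2.29 in the others. For miR-199b-5p it was 3.61 in PA8915, against 0.317 to 1.48 in the others.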

How the results depend on the processing

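The number of microRNAs called, 1 in the 16 libraries by edgeR with TMM scaling, depended on nearly every choice. Scaling by DESeq2 size factors gave 6, by upper-quartile factors 5 and by library totals alone 0. It was 20 without a low-count filter (among them miR-24-3p, which was at 0 in most libraries), 31 with a stricter one, 43 with DESeq2 and 29 with limma-voom. Without the replicate block (baboon as a term) it was 1, miR-223-5p in place of miR-486-5p (log2 change of miR-486-5p 1.15, adjusted p = 0.0707 by edgeR). A fit of all 40 libraries gave 39, or 23 with month as a term. A covariate for log2 total count or for month gave 0, and for miR-122-5p 1. Removing miR-122-5p before scaling gave 17, and removing the index rows 7. Leaving out each baboon in turn gave 0 to 22 calls (16 without PA8001, 22 without PA8835, 2 without PA8914 and 0 without each of the others). The second highest against the second lowest libraries gave 0, the index as a number 6 over 24 and 54 over 40 libraries, which include the 16, a choice of libraries by miR-451a alone 0 and by miR-23a-3p/23b-3p alone 15. Chosen after seeing the data, the 4 baboons whose lowest library is not from month 15 gave 0, and the 6 baboons other than PA8001 and PA8872 gave 0. Settings with 0 calls still had 12 to 61 rows at an unadjusted p of 0.05. The cause of these changes was not tested.

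miR-486-5p passed in 16 of 30 settings and was above 0 in all of them. Over 66 named microRNAs and 1957 alternative values, 1658 kept their side of the threshold and moved by less than 1 SD of the paired differences, 209 newly passed, 14 no longer passed and 76 moved further; 18 of the 66 kept their sign throughout. The median of all rows was 0.069 under DESeq2 size factors, 0.089 under upper quartiles and -0.073 under totals alone, and no list median changed sign with the scaling. Without the low-count filter the red cell median was 0.32 and the neural median -0.066. In the second highest against the second lowest libraries the library properties had the opposite sign: the log2 total differed by 0.405, the rows with a count by 13.5 and the month by 7.12. Leaving out a baboon gave -0.481 to -0.0988 for the log2 total, -31 to -12.6 for rows with a count (-31 without PA8835, exact p = 0.0156, lower in 7 of 7) and -7.29 to -3.86 for the month.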

Other observations

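Choosing libraries by each microRNA of the index on its own gave unlike values for the red cell microRNAs and for the platelet list. With the libraries highest and lowest in miR-451a alone, the log2 change of miR-486-5p was 0.056 (adjusted p = 0.965 by edgeR), the red cell list had 11 of 14 above 0 with a median of 0.23, the DLK1-DIO3 list 9 of 19 with a median of -0.041, and the miR-17 clusters 11 of 11 with a median of 0.30. With the libraries lowest and highest in miR-23a-3p/23b-3p alone, the log2 change of miR-486-5p was 1.28 (adjusted p = 0.0209 by edgeR), while the red cell list had 9 of 14 above 0 with a median of 0.33 and the miR-17 clusters 6 of 11 with a median of 0.049. The platelet list had 6 of 16 above 0 with a median of -0.076 by miR-451a alone, against -0.66 in the 16 libraries. By miR-23a-3p/23b-3p alone it had 3 of 16 above 0 with a median of -0.38, and the DLK1-DIO3 list 3 of 18 with a median of -0.25. These choices share libraries with each other and with the 16, and the difference between them was not tested.

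In the 4 baboons whose lowest index library is not from month 15, the red cell list had 13 of 14 above 0 with a median of 0.42, the miR-17 clusters 11 of 11 with a median of 0.46, the platelet list 3 of 16 with a median of -0.24 and the DLK1-DIO3 list 1 of 17 with a median of -0.27, with no microRNA passing by edgeR and 12 at an unadjusted p of 0.05. Other lists had medians of the opposite sign to those of all 8 baboons: epithelial with 2 of 9 above 0 (median -0.50), liver with 3 of 8 (-0.25), lymphocyte with 2 of 11 (-0.058) and let-7 with 5 of 8 (0.074). Without PA8001 and PA8872 the red cell median was 0.39 and the platelet median -0.60, with none passing and 61 at an unadjusted p of 0.05.

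miR-24-3p, encoded in the same clusters as miR-23a and miR-23b, was either at 0 in a library or high in it. It was at 0 in 27 of the 40 libraries and had 1597 to 43201 counts in the other 13, with no library in between. It had a count in 5 of 8 highest index libraries and in 2 of 8 lowest index libraries. The filter removed it. Among rows with at least 5 libraries at 0 and 5 above, the only other whose smallest count above 0 was 100 or more was miR-652-3p, at 0 in 5 libraries and at 361 to 8957 counts in 35, none of the 16 being among the 5. What sets these counts to 0 was not tested.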
